A study of Mus musculus with 6 samples.

Results

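The genes described here are 10 contractile genes of smooth muscle and myofibroblasts, out of 20656 genes named on the arrays: Acta2, Actg2, Myh11, Myl9, Tagln, Cnn1, Smtn, Tpm1, Tpm2 and Lmod1. They were chosen by name, with earlier results of these data known. Every array probe whose printed accession belongs to one of these genes was taken, which gave 16 probes. Of the 10 genes, 7 had 1 probe, while Tpm1 had 5 and Tpm2 and Smtn had 2 each. The study profiled total RNA on Agilent 1-colour arrays with 1 array per group, 6 in all. The untreated group was mouse embryonic fibroblasts (MEF) from ICR embryos of day E13.5, a mixed culture in which macrophage markers were also well above background. The Tet3 groups were such fibroblasts after adenoviral supernatants with polybrene on successive days, labelled as neurons induced by Tet3 at 1, 3, 5 and 7 dpi. Part of the medium was exchanged for neuronal medium with forskolin, an activator of adenylyl cyclase, on day 3 and day 5 counted from the last infection. Medium and virus therefore cannot be told apart on the later Tet3 arrays. The last group was primary neurons, also labelled E13.5. Fibroblasts given a virus without Tet3 were not analysed here, so virus and Tet3 cannot be told apart.

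Smooth muscle cells contract when the regulatory light chain of a smooth muscle myosin is phosphorylated and the myosin pulls on filaments of smooth muscle actin. Tropomyosins lie along those filaments, and calponin, transgelin and smoothelin bind to them. Fibroblasts that take on part of this equipment, above all smooth muscle alpha actin, are called myofibroblasts, as in healing wounds and in stiff culture dishes. Many of these genes are known targets of serum response factor and its cofactors of the myocardin family, which bind DNA at the CArG box.

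Levels are log2 signals with the 75th percentile of each array set to 0, so a level can be compared between arrays for the same probe and not between probes. The error given with a difference is the one the scanner software's error model assigns to the pair of spots. It was 0.20 on the log2 scale for 8 of the 10 genes, and 0.14 for a single level. It covers the array and not the culture, and with 1 array per group no test between groups was possible. Of the 39409 probes, between 72.9% and 86.1% were well above background on an array, and no spot was saturated. The scan was the same for MEF and 1 dpi, and a separate one held 3, 5 and 7 dpi and neurons. Scan and group therefore cannot be told apart when any of these 4 arrays is set against MEF or 1 dpi. The fibroblast markers, 10 of 10, were well above background in MEF and on every other array, so detection does not check the labels. Their levels were as the labels would have it: 9 of 10 were at least 2-fold lower in neurons than in MEF, where 16.1% of genes were. Tet3 itself, by the brightest of its 3 probes, was 2.56-fold of MEF at 1 dpi, 3.89-fold at 3 dpi and 6.94-fold at 5 dpi but 1.23-fold in the array labelled 7 dpi. A dimmer probe was 0.73-fold of MEF at 1 dpi and between 1.24-fold and 1.33-fold later, and the dimmest was well above background only at 1, 3 and 5 dpi. By Tet3 signal that last Tet3 array thus resembled MEF, and it is called the array labelled 7 dpi throughout.

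The contractile genes were higher than in MEF on the arrays of 1, 3 and 5 dpi. In the array labelled 7 dpi they lay on both sides of MEF, from 1.66-fold lower for Cnn1 to 2.67-fold higher for Smtn. The visceral actin Actg2, the calponin Cnn1 and the leiomodin Lmod1 had large differences, and Myh11 has only a lower bound, so the members are not ranked. Actg2 was 17.5-fold of MEF at 3 and at 5 dpi. From 5 dpi to the array labelled 7 dpi Actg2, Cnn1 and Lmod1 were 9.52-fold to 11.2-fold lower. In primary neurons the members went opposite ways, with Cnn1 4.81-fold higher than in MEF and Tpm2 7.53-fold lower. In RNA from whole cultures, fewer cells of a type and less RNA per cell cannot be told apart. The plot of levels by array shows all 10 genes.

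**Figure D1:**
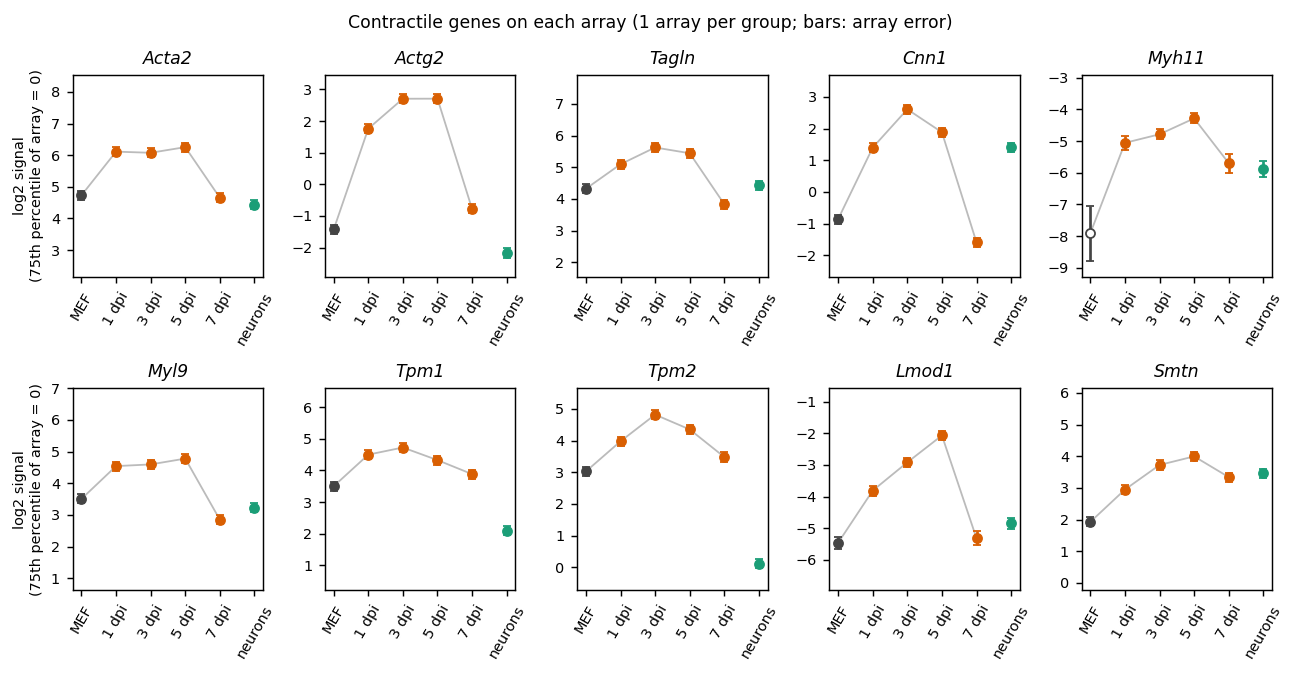
The log2 signal of each contractile gene (brightest probe) on the y axis, for MEF (black), the Tet3 arrays at 1, 3, 5 and 7 dpi (orange) and primary neurons (green), 1 array each; bars are the array error, the open symbol marks a value not well above background, and every panel spans the same number of log2 units. All 10 genes peak at 3 or 5 dpi, and Actg2, Cnn1 and Lmod1 are furthest below their 5 dpi level in the array labelled 7 dpi.

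Acta2 encodes smooth muscle alpha actin, the usual marker of myofibroblasts. Its log2 level was 4.73 in MEF, 6.11 at 1 dpi, 6.07 at 3 dpi, 6.25 at 5 dpi, 4.65 in the array labelled 7 dpi and 4.44 in neurons. Acta2 thus had 3 high arrays of near equal level, and MEF, 7 dpi and neurons were low. Its probe is printed 10 times on each array, and the SD over the 9 or 10 spots kept was between 0.027 and 0.061, so the gap between the high and low arrays was far larger than the spread between spots. Acta2 was 2.60-fold of MEF at 1 dpi, 2.54-fold at 3 dpi and 2.87-fold at 5 dpi (log2 difference 1.52, array error 0.20), and in the array labelled 7 dpi it was 3.03-fold lower than at 5 dpi.

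Promoter sequence is shown for the members in which CArG boxes were found, since the members were high on the same arrays and this element is the known one for the group. The RefSeq promoter table (GRCm38.p6) matched 7 of the 10 genes, and no entry was matched for Actg2, Tagln or Myh11. The 250 bases before each start were searched for the CArG box, allowing at most 1 G or C among its inner bases; the pattern reads the same on both strands. Acta2 and Myl9 held 2 such boxes each, and none was found in this window in Cnn1, Smtn, Tpm1, Tpm2 or Lmod1. Of all 32851 promoters in the table, 8.59% held at least 1 box by this rule and 0.67% held 2 or more, while 1.47% held a box with no G or C inside, as did Myl9. The windows below run 5′ to 3′ on the gene's strand, with the box in capitals. The Acta2 windows lie on the minus strand at chr19:34255438-34255467 and chr19:34255388-34255417, with the boxes starting 84 and 34 bases before the start. The Myl9 windows lie on the plus strand at chr2:156775293-156775322 and chr2:156775355-156775384, with the boxes starting 161 and 99 bases before the start.
Acta2 far box: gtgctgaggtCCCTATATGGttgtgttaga
Acta2 near box: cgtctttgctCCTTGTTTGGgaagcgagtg
Myl9 far box: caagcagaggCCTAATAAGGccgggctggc
Myl9 near box: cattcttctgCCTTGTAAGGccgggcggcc
A match describes these letters and does not show that a factor binds there.

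Actg2 encodes smooth muscle gamma actin, the actin of gut and other visceral muscle. Its log2 level was -1.43 in MEF, 1.76 at 1 dpi, 2.70 at 3 dpi, 2.71 at 5 dpi, -0.78 in the array labelled 7 dpi and -2.17 in neurons. The arrays of 3 and 5 dpi were the highest and did not differ beyond the array error. At 1 dpi the difference from MEF was 3.18, the 24th largest of 16813 genes, at 3 dpi it was 4.13, the 28th largest of 18116, and at 5 dpi it was again 4.13, the 66th largest of 18329. From 5 dpi to the array labelled 7 dpi the difference was -3.48, the 13th lowest of 17910 genes.

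Myl9 encodes the regulatory light chain that is phosphorylated to start contraction. Its log2 level was 3.50 in MEF, 4.54 at 1 dpi, 4.59 at 3 dpi, 4.78 at 5 dpi, 2.85 in the array labelled 7 dpi and 3.23 in neurons. The shape was that of Acta2, with 3 high arrays followed by a low one, and 7 dpi was the lowest of the 6. Myl9 was 2.05-fold to 2.42-fold of MEF from 1 to 5 dpi, and in the array labelled 7 dpi it was 3.81-fold lower than at 5 dpi and 1.58-fold lower than in MEF. With each array centred on its median instead, the differences from MEF were below 2-fold at 1, 3 and 5 dpi, at 0.97, 0.79 and 0.87 on the log2 scale.

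Myh11 encodes the smooth muscle myosin heavy chain, the most specific marker of mature smooth muscle among these genes. It was not well above background in MEF, where its log2 signal was -7.91. The other arrays gave -5.06 at 1 dpi, -4.78 at 3 dpi, -4.28 at 5 dpi, -5.70 in the array labelled 7 dpi and -5.87 in neurons. All of these lie low in the range of the array, so Myh11 was detected there at a dim signal. Set against the lowest measurable signal of the MEF array, the lower bound on the fold of Myh11 over MEF was 2.92 at 1 dpi, 3.53 at 3 dpi, 4.99 at 5 dpi and 1.87 in the array labelled 7 dpi. In neurons the bound was 1.66, or 0.73 on the log2 scale with an array error of 0.90, so it lay within the error. With quantile normalization or median centring no bound above MEF was left in neurons. The bound in the array labelled 7 dpi also lay within its error of 0.91, and was 0.10 on the log2 scale with quantile normalization. From 5 dpi to the array labelled 7 dpi it was 2.67-fold lower (array error 0.34 on the log2 scale). With normexp background correction that difference was -0.59, and the bounds at 1 and 3 dpi were 0.78 and 0.81 on the log2 scale, below 2-fold.

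Tagln encodes transgelin (SM22 alpha), an actin-binding protein of smooth muscle that is abundant in myofibroblasts. Its log2 level was 4.32 in MEF, 5.09 at 1 dpi, 5.62 at 3 dpi, 5.44 at 5 dpi, 3.83 in the array labelled 7 dpi and 4.43 in neurons. MEF and neurons differed by 0.11, less than the array error of 0.20, but by 0.65 with quantile normalization and -0.69 with median centring, so no direction is given. Tagln was 1.71-fold of MEF at 1 dpi, 2.47-fold at 3 dpi and 2.18-fold at 5 dpi, and in the array labelled 7 dpi it was 3.05-fold lower than at 5 dpi.

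Cnn1 encodes calponin 1, which binds actin and slows the myosin motor. Its log2 level was -0.86 in MEF, 1.40 at 1 dpi, 2.61 at 3 dpi, 1.88 at 5 dpi, -1.59 in the array labelled 7 dpi and 1.41 in neurons. Cnn1 had neurons among its high arrays, and MEF and 7 dpi were low. Neurons and 1 dpi, which were in separate scans, were level only with this scaling. With median centring the difference from MEF was 2.191 at 1 dpi and 1.465 in neurons. Its difference from MEF was 2.26 at 1 dpi, 3.47 at 3 dpi (the 53rd largest of 18116) and 2.74 at 5 dpi. From 5 dpi to the array labelled 7 dpi the difference was -3.48, the 14th lowest of 17910 genes and next to that of Actg2.

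Smtn encodes smoothelin, a protein of contractile smooth muscle filaments. The brighter of its probes (NM_001159284) had a log2 level of 1.93 in MEF, 2.95 at 1 dpi, 3.72 at 3 dpi, 4.00 at 5 dpi, 3.34 in the array labelled 7 dpi and 3.46 in neurons. By this probe Smtn was the only member still called in the array labelled 7 dpi, at 2.67-fold of MEF, and it was 2.90-fold of MEF in neurons. The other probe (NM_013870) had levels of -1.25, -0.56, 0.14, -0.65 and -0.87 from MEF to 7 dpi and -3.44 in neurons. It was highest at 3 dpi, was only 1.31-fold of MEF in the array labelled 7 dpi and was 4.57-fold lower in neurons, so the probes disagreed on the direction in neurons. By the mean of both probes the differences from MEF were 0.86 at 1 dpi, 0.90 in the array labelled 7 dpi and -0.33 in neurons.

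Tpm2 and Tpm1 encode tropomyosins, the coiled-coil proteins along the actin filament; Tpm1 is spliced into muscle and non-muscle forms. The brighter Tpm2 probe had a log2 level of 3.02 in MEF, 3.97 at 1 dpi, 4.82 at 3 dpi, 4.35 at 5 dpi, 3.48 in the array labelled 7 dpi and 0.11 in neurons. The second Tpm2 probe had the same order of arrays, with differences from MEF of 1.31, 2.30, 1.88 and 0.70 from 1 to 7 dpi and -1.95 in neurons. Both probes thus put Tpm2 highest at 3 dpi and lowest in neurons, at 7.53-fold and 3.87-fold below MEF.

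The 5 probes of Tpm1 differed among themselves. The brightest (NM_001164249) had a log2 level of 3.50 in MEF, 4.5 at 1 dpi, 4.72 at 3 dpi, 4.33 at 5 dpi, 3.88 in the array labelled 7 dpi and 2.09 in neurons. Both probes for NM_001164248 were low at 3 dpi, at 0.35 and 0.19 over MEF, and high at 5 dpi, at 1.42 for each. They were still 2.45-fold and 2.38-fold of MEF in the array labelled 7 dpi and 2.71-fold and 2.69-fold in neurons, where the brightest probe was 2.65-fold lower. The probe for NM_001164251 was 3.22-fold of MEF at 3 dpi and 2.93-fold in neurons, and the probe for NM_001164255 stayed within 1.17-fold of MEF on all 5 other arrays. By the mean over probes Tpm1 was 0.58 above MEF in neurons, 0.72 at 3 dpi and 1.13 at 5 dpi. Which splice forms each probe matches was not examined here.

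**Figure D2:**
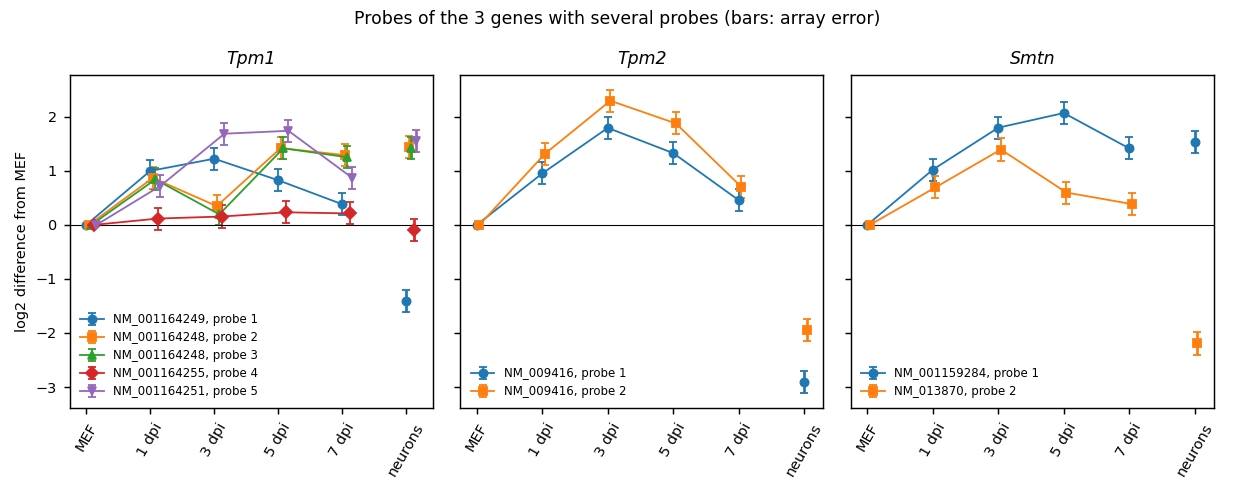
The log2 difference from MEF (y axis) for each probe of Tpm1, Tpm2 and Smtn on the 5 other arrays (x axis), with the array error as bars and 1 array per group. The Tpm2 probes run together, the Smtn probes part at 5 dpi and in neurons (1.54 against -2.19), and the Tpm1 probe for NM_001164255 stays near 0.

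Lmod1 encodes leiomodin 1, which starts new actin filaments in smooth muscle. Its log2 level was -5.46 in MEF, -3.81 at 1 dpi, -2.92 at 3 dpi, -2.07 at 5 dpi, -5.32 in the array labelled 7 dpi and -4.85 in neurons. Lmod1 was higher at each step to 5 dpi, where it was 10.5-fold of MEF, and in the array labelled 7 dpi it was within the array error of MEF (difference 0.14, error 0.30), though -0.57 from MEF with quantile normalization. From 5 dpi to the array labelled 7 dpi it was 9.52-fold lower, the 20th lowest of 17910 genes. Its size depended on the background correction: with normexp the log2 difference was 2.28 at 5 dpi over MEF in place of 3.39, and -2.05 in place of -3.25 for 7 over 5 dpi.

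Counted together, 7 of 10 members were at least 2-fold higher at 1 dpi than in MEF and 0 lower, where 5.37% of 16813 genes were higher and 6.03% lower; these arrays were in 1 scan. Myh11 counts at its bound in these numbers. Tagln, at 0.77, Tpm2, at 0.95, and Tpm1, at 0.998, were the members not called. The median over members was 1.21 on the log2 scale, against 0.07 over all genes tested. At 3 dpi 10 of 10 were at least 2-fold higher, where 16.3% of 18116 genes were and 9.83% were lower, with a median of 1.80 against 0.20 over all genes. At 5 dpi 9 of 10 were higher, where 17.9% of 18329 genes were and 8.31% were lower, with a median of 1.80 against 0.20, and Tpm1, at 0.83, was the member not called. With each array centred on its median, 5 members were called at 1 dpi, 8 at 3 dpi and 6 at 5 dpi, and all 10 stayed above MEF at each of these times. These comparisons share the MEF array, and the members were chosen with earlier results of these data known.

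In the array labelled 7 dpi, 1 of 10 members was at least 2-fold higher than MEF (Smtn) and 0 were lower, where 17.0% of 17506 genes were higher and 6.84% lower. The median over members was 0.26, against 0.16 over all genes, and single members lay between -0.73 for Cnn1 and 1.41 for Smtn. With median centring 0 were higher and 2 lower, Cnn1 at -1.18 and Myl9 at -1.1. Set against 5 dpi, which was in the same scan, all 10 members were lower in the array labelled 7 dpi and 7 of them at least 2-fold, where 4.71% of 17910 genes were and 6.0% were higher. The median of this difference was -1.60, against -0.01 over all genes, and Tpm1 (-0.44), Smtn (-0.65) and Tpm2 (-0.87) were the members lower by less than 2-fold. The steps from 1 to 3 dpi and from 3 to 5 dpi were smaller. From 1 to 3 dpi 1 member was at least 2-fold higher (Cnn1, 2.31-fold), where 7.84% of 17608 genes were and 5.12% were lower. The arrays of 1 and 3 dpi were in separate scans, so scan and time cannot be told apart in that step. From 3 to 5 dpi, in the same scan, 0 members differed by 2-fold, where 8.09% of 18556 genes were higher and 4.6% lower. All genes above background on all 6 arrays were highest at 3 dpi in 19.6% of cases and at 5 dpi in 11.4%. By their brightest probe, 4 of the 10 members were highest at 3 dpi and 6 at 5 dpi. For Acta2, Actg2, Tagln and Myl9 the levels at 3 and 5 dpi differed by less than the array error of 0.20, so which was higher is not resolved. Myh11 is counted at 5 dpi but was not above background in MEF, so it is outside the set of all genes.

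**Figure D3:**
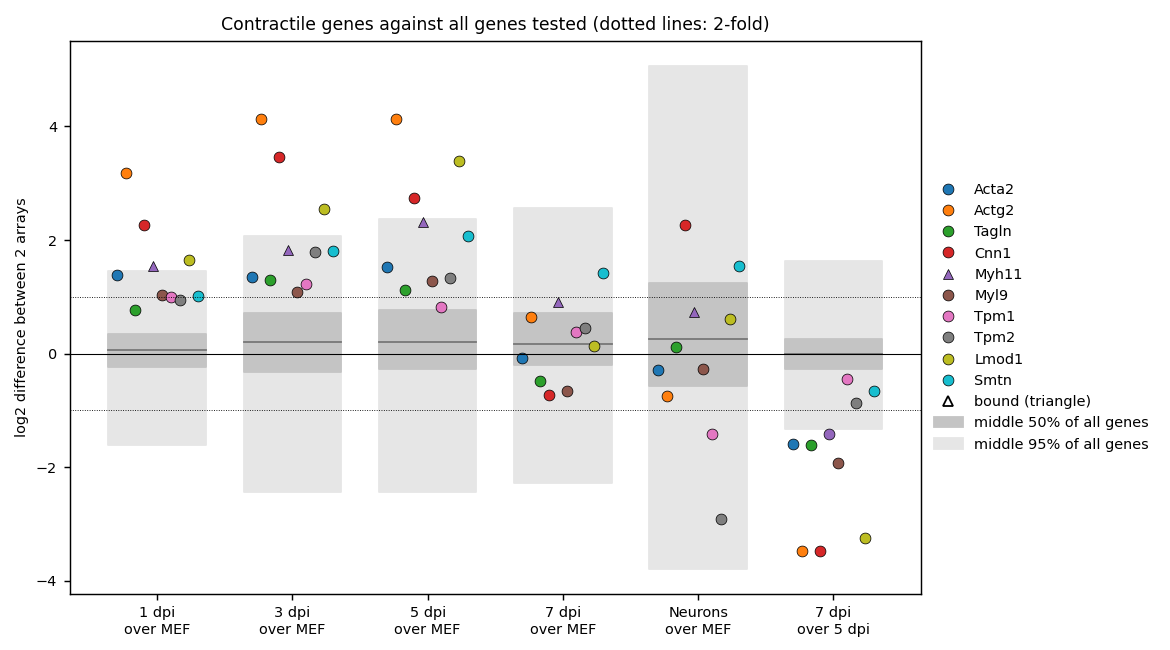
The log2 difference between arrays (y axis) for each contractile gene in the 6 comparisons named on the x axis; grey boxes hold the middle 50% and 95% of all genes tested, triangles are bounds and dotted lines mark 2-fold. Members lie above 0 at 1, 3 and 5 dpi, around 0 at 7 dpi over MEF and below 0 for 7 over 5 dpi, with a median of -1.60.

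In primary neurons 2 of 10 members were at least 2-fold higher than in MEF (Cnn1 and Smtn) and 2 lower (Tpm1 and Tpm2), where 30.2% and 16.1% of 18763 genes were. The median was -0.08, against 0.26 over all genes. With quantile normalization it was 0.17, and with median centring -1.08, with 1 member higher and 5 lower. The calls of Smtn and Tpm1 rest on the brightest probe. By the mean over probes Smtn was at -0.33 and Tpm1 at 0.58, of the opposite sign, and 1 member was higher and 1 lower. Acta2 was within 1.23-fold of MEF, Myl9 within 1.21-fold and Tagln within 1.08-fold, but this nearness held only with some scalings. With median centring Acta2 was at -1.09, Myl9 at -1.08 and Tagln at -0.69 on the log2 scale, and with quantile normalization they were at 0.28, 0.17 and 0.65. Beside these, fibroblast markers were lower in neurons with a median of -4.81, and collagen Col1a1 was 22.5-fold lower. Of 8 pericyte markers in neurons, 1 was above MEF by 2-fold or more and 5 were below it by as much. All 8 were well above background in neurons and 7 in MEF, where Rgs5 was not: Rgs5 was at least 12.5-fold higher, Pdgfrb 12.1-fold lower and Anpep 188-fold lower in neurons. The summed level of the pericyte list was 5.74 in neurons and between 24.4 and 35.9 on the other arrays, in units of the 75th percentile. Such sums, here and below, add linear signals over unlike probes, so the brightest probes weigh most. The part of pericyte markers in the contractile signal of the neuron array was not tested.

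Markers of other cell types, and of fibroblasts, also differed between these arrays. At 3 dpi, when all members were called higher, 4 of 10 fibroblast markers were at least 2-fold lower than MEF, where 9.83% of genes were, with a median of -0.53 and decorin (Dcn) lowest at -2.71. At 5 dpi 0 of 10 fibroblast markers differed by 2-fold, where 17.9% of genes were higher and 8.31% lower. Pericyte markers went both ways: at 3 dpi 2 of 8 were higher and 4 lower, with Cspg4 9.3-fold higher and Kcnj8 38.6-fold lower, and at 5 dpi 1 was higher and 3 lower. Over all genes 16.3% were higher at 3 dpi, so the counts of higher pericyte markers were near the shares at both times. Macrophage markers, 9 of them on the array and all well above background in MEF, had a summed level of 226 in MEF, 44.1 at 1 dpi, 31.2 at 3 dpi, 10.3 at 5 dpi and 8.33 in the array labelled 7 dpi. Their summed level was highest in MEF, and 8 of 9 were at least 2-fold lower on every Tet3 array, where between 6.03% and 9.83% of all genes were. The part of macrophage markers in the differences from MEF was not tested. Endothelial markers had 5 to 7 of 8 well above background, and a summed level between 2.40 and 3.34 on all 6 arrays. Single endothelial markers differed more than this sum. At 3 dpi 1 of 7 measured or bounded was at least 2-fold higher than MEF and 3 were lower, where 16.3% and 9.83% of genes were. These differences lay between -1.56 and a bound of 4.59 on the log2 scale. The neuron markers had a median difference from MEF of 0.77 at 1 dpi, 1.66 at 3 dpi, 2.63 at 5 dpi and 5.34 in the array labelled 7 dpi. The Tet3 array with the largest neuronal difference was thus the one on which the median of the contractile genes was back near MEF.

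Striated muscle genes were high in the array labelled 7 dpi where the smooth muscle genes were not. Their list holds heart and skeletal actins and myosins, and also troponins and other genes without a counterpart among the members. Of 18 on the array, 10 of 17 measured were at least 2-fold higher at 1 dpi, 9 of 18 at 3 dpi, 10 of 18 at 5 dpi and 14 of 17 in the array labelled 7 dpi, and 0 were lower at any of these times. Over all genes 5.37%, 16.3%, 17.9% and 17.0% were higher at 1, 3, 5 and 7 dpi, and between 6.03% and 9.83% lower. The troponin Tnnt2 was 7.02-fold, 12.2-fold, 33.6-fold and 81.9-fold of MEF at 1, 3, 5 and 7 dpi. The embryonic myosin Myh3 was 9.21-fold at 5 dpi and 55.5-fold in the array labelled 7 dpi, and cardiac actin Actc1 20.1-fold and 25.8-fold. Skeletal actin Acta1 instead followed the smooth muscle actins, at 3.64-fold, 4.74-fold, 4.07-fold and 1.76-fold. Actin mRNAs are alike in their coding parts, and how far each actin probe also reads the others was not tested.

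Further smooth muscle and myofibroblast genes, 20 on the array, were for the most part high on the same arrays. Of these, 9 of 19 measured were at least 2-fold higher than MEF at 1 dpi, 16 of 20 at 3 dpi, 11 of 20 at 5 dpi and 4 of 19 in the array labelled 7 dpi, and 0 were lower at these times. Over all genes 5.37%, 16.3%, 17.9% and 17.0% were higher at 1, 3, 5 and 7 dpi, and between 6.03% and 9.83% lower. The 4 of 19 in the array labelled 7 dpi were thus near the share over all genes. The median was 0.79, 1.35, 1.16 and 0.21, and from 5 to 7 dpi 9 of 20 were at least 2-fold lower, where 4.71% of all genes were. Ppp1r14a (CPI-17), an inhibitor of myosin phosphatase in smooth muscle, was 7.70-fold, 8.70-fold and 18.1-fold of MEF at 1, 3 and 5 dpi and 1.83-fold in the array labelled 7 dpi. The LIM protein Fhl1 was 9.83-fold of MEF at 3 dpi and 2.35-fold in the array labelled 7 dpi, the heat shock protein Hspb1 5.49-fold and 1.1-fold, and vinculin (Vcl), which anchors actin at adhesions, 4.55-fold and 1.02-fold. Some genes of the list stayed high. Desmin (Des), the intermediate filament protein of muscle, was not well above background in MEF, and the lower bound on its fold was 4.32, 12.4, 19.1 and 13.6 at 1, 3, 5 and 7 dpi. Synpo2 and Ldb3, proteins of muscle Z-discs, had their highest Tet3 value in the array labelled 7 dpi, at 2.15-fold and 2.23-fold of MEF.

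The non-muscle counterparts, 11 genes, were closer to MEF. Apart from the neuronal Tagln3, they build the cytoskeleton of most cells. At 1, 3 and 5 dpi 0 of 11 were at least 2-fold higher than MEF, where 5.37%, 16.3% and 17.9% of all genes were. The medians of these 11 genes were 0.23, 0.11 and 0.14. Beta actin (Actb) lay between -0.34 and 0.14 of MEF on the 4 Tet3 arrays and gamma actin (Actg1) between -0.31 and 0.15, on the log2 scale. Non-muscle myosin Myh9 was the furthest above MEF of these at 5 dpi, at 1.80-fold, and was level with MEF in the array labelled 7 dpi. The tropomyosin Tpm4 had the order of the members at a smaller size, at 0.33, 0.63, 0.70 and -0.21 over MEF at 1, 3, 5 and 7 dpi. Tagln3, a transgelin of neurons, went the other way from Tagln: it was 2.35-fold lower than MEF at 3 dpi, 3.57-fold higher in the array labelled 7 dpi and 18.3-fold higher in neurons. Among leiomodin and tropomodulin genes, Lmod3 was 3.29-fold of MEF in the array labelled 7 dpi and Tmod1 5.94-fold lower at 3 dpi.

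**Figure D4:**
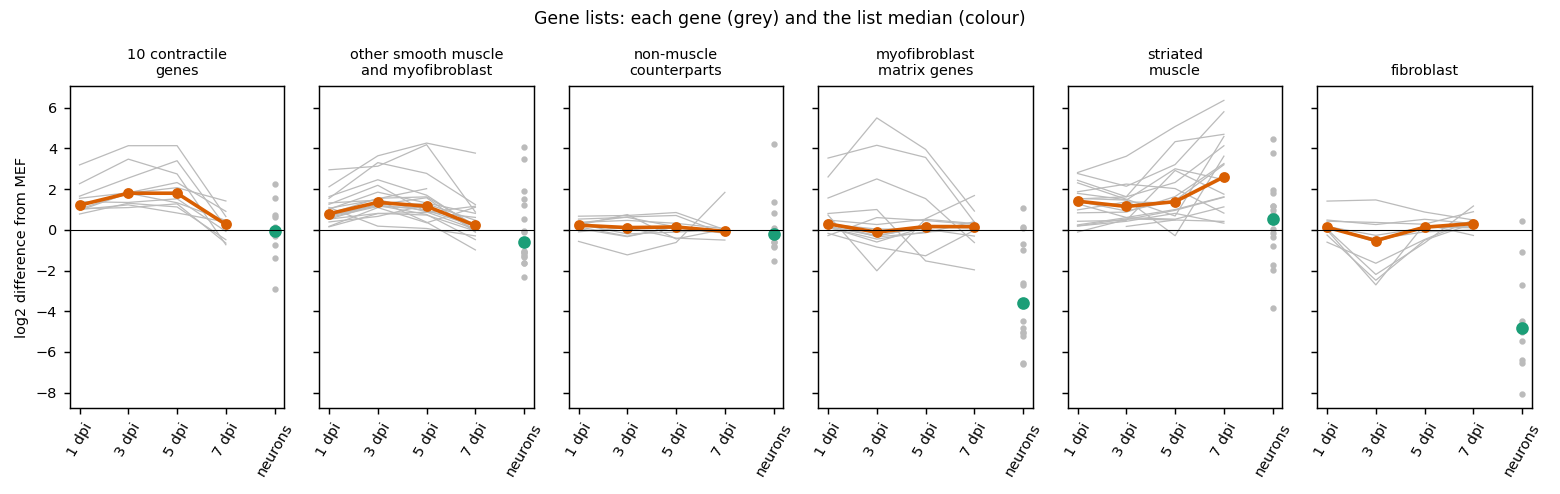
The log2 difference from MEF (y axis) for each gene (grey) and the list median (orange for the Tet3 arrays, green for neurons) in 6 gene lists; genes not above background on either array compared are left out. The medians of the contractile genes and of the other smooth muscle genes are near 0 in the array labelled 7 dpi (0.26 and 0.21) while that of striated muscle is 2.60. The matrix and fibroblast medians are -3.61 and -4.81 in neurons.

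Matrix genes of myofibroblasts were divided. The fibrillar collagens and fibronectin lay between -0.60 and 0.52 of MEF on the log2 scale on all 4 Tet3 arrays, and the list of 14 had medians of 0.29, -0.12, 0.16 and 0.15 at 1, 3, 5 and 7 dpi. Tenascin C (Tnc), a matrix protein of healing wounds, was 11.5-fold, 17.8-fold and 11.7-fold of MEF at 1, 3 and 5 dpi and 1.30-fold in the array labelled 7 dpi. Ccn2, a matricellular growth factor, was 2.95-fold, 5.65-fold and 2.89-fold of MEF at 1, 3 and 5 dpi and then 1.55-fold lower. Both genes were thus high on the same arrays as the contractile genes. Fap, a protease of activated fibroblasts, was not: it was 4.04-fold lower than MEF at 3 dpi and 3.21-fold higher in the array labelled 7 dpi.

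Known regulators of the contractile programme were also measured. Of 20 on the array, 0 of 18 measured were at least 2-fold higher at 1 dpi, 1 of 19 at 3 dpi, 2 of 19 at 5 dpi and 1 of 19 in the array labelled 7 dpi, and 1, 1, 4 and 3 were lower. For comparison, 5.37%, 16.3%, 17.9% and 17.0% of all genes were higher at these times and 6.03%, 9.83%, 8.31% and 6.84% lower. Serum response factor (Srf) differed from MEF by -0.07, 0.74, 0.51 and -0.22 on the log2 scale at 1, 3, 5 and 7 dpi. Myocardin (Myocd), the smooth muscle cofactor of Srf, was not well above background in MEF or at 1 dpi, so its fold over MEF has only a lower bound, of 3.08 at 3 dpi, 2.27 at 5 dpi and 2.28 in the array labelled 7 dpi. The ligand Tgfb1 was 4.02-fold lower than MEF at 5 dpi and 3.87-fold lower in the array labelled 7 dpi, and its receptor Tgfbr2 2.35-fold and 2.28-fold lower. For the receptor Tgfbr1 the levels were 2.68-fold, 3.27-fold and 2.42-fold below MEF at 1, 3 and 5 dpi and 1.17-fold below it in the array labelled 7 dpi, and Smad7, a feedback inhibitor of TGF-beta signalling, was 2.48-fold higher at 5 dpi. mRNA levels do not measure the activity of these proteins.

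The genes nearest in pattern to Acta2 and Cnn1 were sought among 14779 other genes well above background on all 6 arrays. Genes with an outlier spot or with a predicted or clone name were left out. The measure was the root mean square difference over the 6 arrays after each gene's mean was subtracted. Nearest to Acta2 were Ntf5 (0.19), Tbc1d2 (0.19), the T-box factor Tbx2 (0.22), the thrombin receptor F2r (0.23) and Slpi (0.25), while the member Myl9 lay at 0.20 and Tagln at 0.34. Nearest to Cnn1 were Pcolce2 (0.51), Mcub (0.57), dysferlin (Dysf, 0.58), Mamdc2 (0.62) and Kif24 (0.68), and the closest member was Lmod1 at 0.88. Myh11 is left out, since its value in MEF was not measured. These are descriptions of 6 arrays.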

How the data were processed

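RNA of 6 samples was hybridised to 1 Cy3-labelled Agilent mouse array each. The authors' scanner software was Agilent Feature Extraction 11.0.1.1, as the submitters' processing notes name it. Per the file headers, the intensity values used are processed signals, corrected for background, with their modelled error; those of the neuron array are rounded in the file. The deposited series table holds log2 values with the 75th percentile of each array at 0; how it was made is not stated here. Its column medians lay between -3.303 and -2.503, and its values for the member probes differed from those used here by at most 0.0058.

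From the processed signals, log2 values were taken, the spots of a probe averaged without outlier spots (39409 of 39429 probes kept) and each array's 75th percentile taken off. RefSeq accessions named 27222 probes (69.1%), and the brightest probe stood for a gene. A difference needed both arrays well above background; with 1 it became a bound, set against the higher of that array's lowest measurable signal and the dim probe's own. A 2-fold difference was called; no test was possible. Members, lists and comparisons were chosen with earlier results of these data known. Named are all members, up to 4 genes per list with the largest measured difference from MEF on a Tet3 array, single genes named after their values were seen (Actb, Actg1, Acta1, Srf, Myocd, Col1a1, Rgs5, Pdgfrb, Des, Synpo2, Ldb3), and the 5 genes nearest in pattern to Acta2 and Cnn1; those of Myh11, also under the rule, were dropped because its MEF value is not above background. A gene under this rule is not reported here. Alternatives were quantile normalization, median centring, normexp with an offset of 50 on median signals (limma 3.58.1, R 4.3.3), the authors' table, no filter, both arrays above background, and the mean over probes.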

Additional observations from a re-analysis of the deposited data

How the results depend on the processing

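Of the 38 member differences of 2-fold or more, 261 of 263 values under the 7 alternatives had the same sign and 245 were still at least 2-fold. The 2 that reversed were both in neurons over MEF by the mean over probes, Tpm1 at 0.58 and Smtn at -0.33, whose probes disagree. Several alternatives could move few values, so these counts overstate the agreement. The authors' table was almost equal to the values used, and the filter settings could change only Myh11. Requiring both arrays above background left out the Myh11 bounds, which were not counted as lost. The mean over probes could change only the 3 genes with several probes. Counts of members at 1, 3 and 5 dpi over MEF, and at 7 over 5 dpi, stayed within 1.5 times. The median over members at 3 dpi was 1.5 with median centring and 1.48 with normexp; at 5 dpi it was 1.53 with quantile normalization, 1.39 with median centring, 1.41 with normexp, 1.52 with both arrays above background and 1.56 by the mean over probes. At 7 dpi over MEF the count of higher members was 0 with median centring, 2 without a filter and 0 by the mean over probes, that of lower members was 2 with median centring, and the median was -0.18 with median centring. In neurons over MEF the higher count was 1 with median centring, 3 without a filter and 1 by the mean over probes; the lower count was 5 with median centring and 1 by the mean over probes, 3 with quantile normalization; and the median was 0.17 with quantile normalization and -1.08 with median centring. Scaling set the balance over all genes: 62.3%, 68.3%, 71.3% and 65.3% of calls were higher at 3, 5 and 7 dpi and in neurons over MEF, against 42.7%, 45.8%, 48.4% and 46.1% with quantile normalization and 40.6%, 39.9%, 41.9% and 30.1% with median centring. The median of all genes at 5 dpi over MEF was 0.20, 0.04 and -0.20 under these 3 scalings, and in neurons 0.26, -0.06 and -0.59. No paired analysis was possible because each group has 1 array. Signal over background limits the dim genes Myh11 and Lmod1.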
